A study of Mus musculus with 32 samples.

Results

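The age difference in muscle at the start of the night was measured as 80-week against 8-week hindlimb muscle at ZT 12 and ZT 15, where ZT (zeitgeber time) counts the hours since the lights came on, so that these are lights off and 3 h later. The arrays were chosen by their labelled ZT alone, and these 8 arrays are a part of the 32 of the whole series, which sampled 8 times of day. Each age had 4 arrays, 2 at each ZT, and each array held pooled RNA of 3 mice. All mice were C57BL/6, were kept for 2 weeks in 12 h of light and 12 h of darkness with free access to food and water, and the labels name no other treatment. The replicates are thus separate pools, and how single animals vary within a pool was not measured. The 2 arrays of a group are called repeat 1 and repeat 2, as in the labels. The values are log2 expression levels from GeneChip Mouse Gene 2.0 ST arrays, on which 1 unit is a factor of 2, and each gene is followed through 1 probe set.

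Mice are active at night, so lights off opens their phase of running and feeding. Muscle fibres hold a cell-autonomous clock in which CLOCK and BMAL1 (encoded by Arntl) switch on the Per and Cry genes and Nr1d1, whose proteins in turn repress the clock's activators. Corticosterone, the main glucocorticoid of rodents, rises toward the active phase in mice and drives target genes such as Fkbp5 and Tsc22d3 in muscle. Ageing muscle is known for loss of fibre size and strength and for changes at the nerve contact, in the matrix and in resident immune cells.

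Muscle identity was clear on the 8 arrays. The mean level of 14 fast fibre markers lay between 12.8 and 13.0 on each of them, close to the top of the measured range. Several arrays stood apart in transcripts of other cells. The aged ZT 15 repeat 2 array carried a matrix signal, with Postn (periostin) at 11.39 against 6.22 on its repeat, a 36.1-fold difference, and Col1a1 at 12.12 against 8.28. The young ZT 12 repeat 1 and young ZT 15 repeat 2 arrays carried lymphocyte transcripts, with the B cell gene Cd79b at 7.44 and 6.88 against 5.70 and 5.86 on the other young arrays. The mean of 6 adipocyte genes was 9.58 on aged ZT 12 repeat 1, 9.18 on aged ZT 15 repeat 1 and 9.29 on young ZT 15 repeat 2, against 7.99 to 8.37 on the other 5 arrays. In tissue RNA, fewer cells of a type and less RNA per cell cannot be told apart.

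A small set of genes differed between the ages in early dark. Of 23279 genes, 36 passed an adjusted p of 0.05 (limma, ZT as covariate, n = 4 arrays per age), which is 0.155% of those tested. In 80-week muscle 23 of them rose (0.0988%) and 13 fell (0.0558%). At an unadjusted p under 0.05 the count was 1873, where 1164 would be expected with no difference in any gene. The 36 changes were at least 0.62 in size on the log2 scale, and 7 rises and 4 falls were at least 2-fold. For 35 of the 36 genes all 4 aged arrays lay on one side of all 4 young arrays, and the exception was Fhl5. Over all genes, such a separation was found upward in 592 genes (2.54%) and downward in 564 (2.42%).

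**Figure D1:**
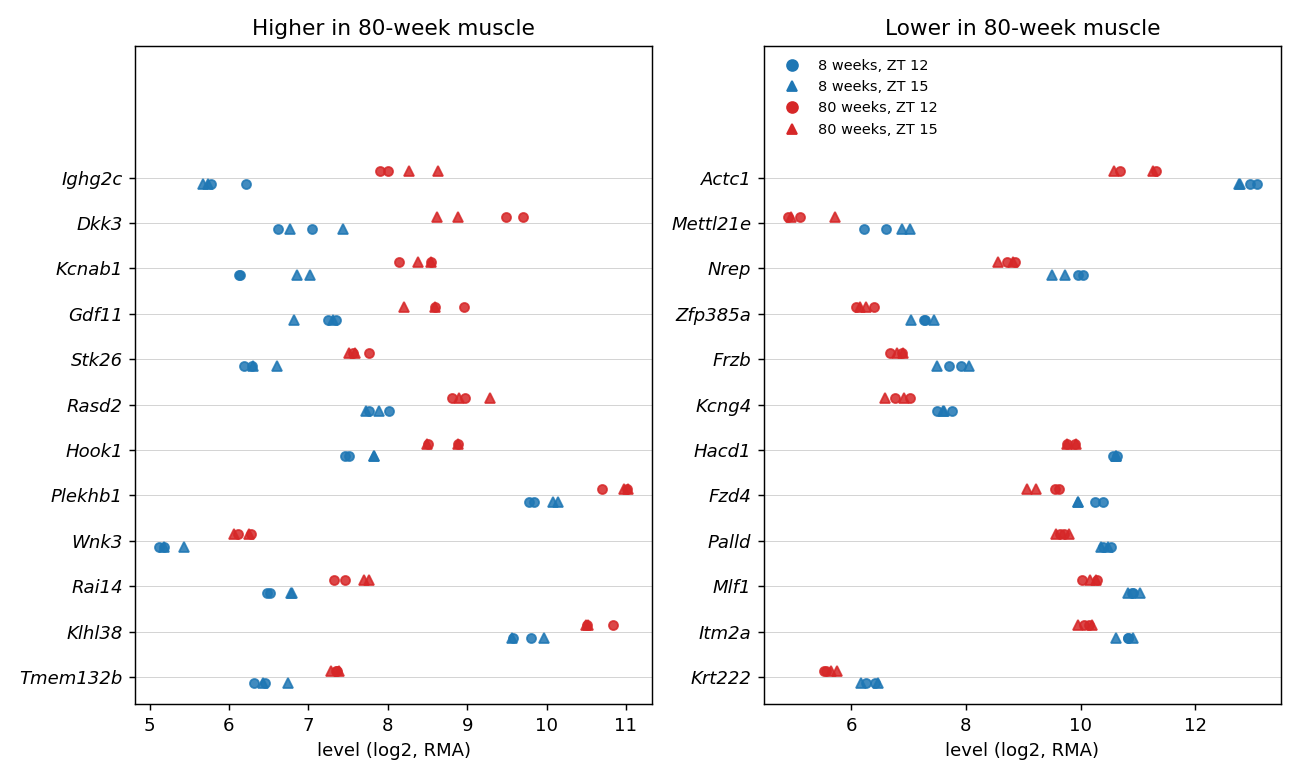
Level (log2) of the 12 genes with the largest rise and the 12 with the largest fall in 80-week muscle on each of the 8 arrays. Blue marks 8 weeks and red 80 weeks, circles ZT 12 and triangles ZT 15. Genes were taken only if their red and blue points did not overlap, so the lack of overlap is a condition of the choice. The gap is widest for Ighg2c, Dkk3, Kcnab1 and Actc1.

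The largest rise was that of Ighg2c, which encodes the constant region of an immunoglobulin G heavy chain made by plasma cells. On the young arrays it stood at 6.22 and 5.78 at ZT 12 and at 5.73 and 5.67 at ZT 15. On the aged arrays it stood at 7.90 and 8.00 at ZT 12 and at 8.63 and 8.27 at ZT 15. The aged arrays were thus all above the young ones, and the young values lay in the lower part of the measured range. The rise was 2.35 ± 0.179 (SE) on the log2 scale, or 5.10-fold (limma adjusted p = 0.00333). Ighm, the heavy chain of immunoglobulin M, rose by 0.83 ± 0.122 (adjusted p = 0.0418), from 9.23 to 9.65 on young arrays to 10.12 to 10.41 on aged ones. Jchain, which joins immunoglobulins into polymers, was at 3.54 to 3.73 in young and 3.85 to 4.67 in aged muscle and did not pass (adjusted p = 0.153). Constant-region genes of immunoglobulins are close relatives in sequence, and binding of a relative's RNA by these probes was not tested.

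These 3 antibody genes stood on a list with B cell genes that went the other way in level. Cd79a, a part of the B cell receptor, was at 6.36, 5.57, 5.41 and 6.82 on the young arrays and at 5.13 to 5.39 on the aged ones. Its high young values lay on the arrays that also carried Cd79b. Of 8 measured B and plasma cell genes, 2 rose and none fell, where 0.0988% of all genes rose and 0.0558% fell, and 4 differences were above 0 and 4 below. The mean of the list ran from 5.71 to 6.78 in young and from 6.36 to 6.75 in aged arrays, so that the ages overlapped. This list and the other gene lists were chosen with earlier results of these data known, so counts of their members are a description. Without the 2 lymphocyte-bearing young arrays, Ighg2c still passed, at a difference of 2.45 (limma adjusted p = 0.00544).

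Secreted factors were among the largest rises. Dkk3, a secreted glycoprotein of the Dickkopf family, was at 6.62 and 7.05 in young muscle at ZT 12 and at 6.77 and 7.44 at ZT 15. In aged muscle it was at 9.48 and 9.70 at ZT 12 and at 8.62 and 8.89 at ZT 15. The aged arrays were all above the young ones, by more at ZT 12 than at ZT 15. The rise was 2.20 ± 0.239, or 4.60-fold (adjusted p = 0.0098). Gdf11, a ligand of the TGF-beta superfamily, was at 6.82 to 7.35 in young and 8.20 to 8.96 in aged muscle, a rise of 1.41 ± 0.147 or 2.65-fold (adjusted p = 0.00886). Tgfb2, another ligand of that superfamily, rose by 0.67 ± 0.0935 (adjusted p = 0.0345). Ostn, which encodes the muscle peptide musclin, was at 8.59 to 9.56 in young and 10.08 to 11.30 in aged muscle, apart on all 8 arrays but above the threshold (adjusted p = 0.0924). Of the 11 measured genes listed as secreted by muscle, 2 rose (0.0988% of all genes did), none fell, and the median difference was 0.10. As this list too was chosen with earlier results known, the count is a description.

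Kcnab1, the auxiliary beta subunit of voltage-gated potassium channels, was at 6.12 and 6.14 in young muscle at ZT 12 and at 7.02 and 6.85 at ZT 15. In aged muscle it was at 8.54 and 8.14 at ZT 12 and at 8.55 and 8.38 at ZT 15. Within each age the values were close, apart from higher young values at ZT 15. Kcnab1 rose by 1.87 ± 0.157, or 3.65-fold (adjusted p = 0.00418). Kcng4, a potassium channel subunit that modifies other channels, fell from 7.50 to 7.75 in young arrays to 6.59 to 7.02 in aged ones (adjusted p = 0.0418). Stk26, a kinase of the STE20 family, rose by 1.26 ± 0.116 from 6.19 to 6.61 in young to 7.51 to 7.76 in aged arrays (adjusted p = 0.00519). Rasd2, a small GTPase, rose by 1.14 ± 0.127 (adjusted p = 0.0100), and Wnk3, a kinase that regulates cation and chloride cotransport, by 0.95 ± 0.107 (adjusted p = 0.0104).

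The largest fall was that of Actc1, the cardiac alpha-actin, which skeletal muscle makes mainly while it develops or regenerates. It was at 12.95 and 13.08 in young muscle at ZT 12 and at 12.76 and 12.78 at ZT 15. In aged muscle it was at 10.70 and 11.31 at ZT 12 and at 10.58 and 11.27 at ZT 15. The young arrays were close together near the top of the range, and the aged ones were spread wider and all below them. The fall was -1.93 ± 0.173 on the log2 scale, so that the level was 3.80-fold higher in young muscle (adjusted p = 0.00516). Palld, which encodes the actin-binding palladin, fell by 0.76 ± 0.0971 (adjusted p = 0.0207), and Rai14, another actin-binding protein, rose by 0.92 ± 0.0885 (adjusted p = 0.0060). Of the 10 listed genes of stretch response and sarcomere repair, Actc1 fell and none rose, where 0.0558% of all genes fell and 0.0988% rose. At both times the aged arrays were higher in 3 of the 10 (4.48% of all genes) and lower in 1 (4.14%). Igfn1 at 6.47 to 7.16 in young and 7.57 to 7.77 in aged muscle, and Ankrd1 at 6.43 to 8.44 and 8.56 to 8.99, were apart upward without passing (adjusted p = 0.0610 and 0.201). With 1 array left out, the Ankrd1 difference ran from 1.18 without young ZT 15 repeat 1 to 1.99 without young ZT 15 repeat 2. Of these fits, Ankrd1 passed in the last alone.

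Mettl21e, which encodes a methyltransferase-like protein of muscle, was at 6.60, 6.23, 6.89 and 7.01 on the young arrays and at 4.89, 5.11, 4.95 and 5.72 on the aged ones. It fell by 1.52 ± 0.168, to a level 2.86-fold lower (adjusted p = 0.0100). Nrep, also called P311, fell by 1.07 ± 0.112 (adjusted p = 0.00886), and Zfp385a, a zinc finger protein, by 1.04 ± 0.119 (adjusted p = 0.0111). Hacd1, an enzyme of very long chain fatty acid synthesis that muscle makes in quantity, was at 10.57 to 10.63 in young and 9.76 to 9.91 in aged muscle. Its young arrays lay close together, and its fall was -0.77 ± 0.0904 (adjusted p = 0.0120). Frzb, a secreted Wnt antagonist, fell by 0.98 ± 0.133 (adjusted p = 0.0328), and Fzd4, a Wnt receptor of endothelium and other cells, by 0.77 ± 0.0925 (adjusted p = 0.0141). Mlf1, Itm2a and Krt222 fell by 0.73, 0.71 and 0.71, and Sdc2, a cell surface heparan sulphate proteoglycan, by 0.66.

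The other rises were of moderate size. Hook1, a linker of endosomes to microtubules, rose by 1.04, Plekhb1 by 0.97, Klhl38 by 0.86 and Tmem132b by 0.86. Pkp2, which encodes a plakophilin of desmosomes, rose by 0.81, and Pla2g7, the secreted hydrolase of platelet-activating factor, by 0.73. Rhpn2, Bex1, Ctxn3, Fhl5, Srrm4os, Fam98b and Taf9b rose by 0.62 to 0.73. Fhl5 was at 6.98 to 7.63 in young and 7.56 to 8.28 in aged arrays, which overlapped over the times but not at either one of them. Bex1 and Srrm4os lay just inside the threshold (both adjusted p = 0.0454), as did Ctxn3 and Fam98b. Arpp21 with a difference of -0.73 (adjusted p = 0.0515) and C7 with 0.99 (adjusted p = 0.0533) lay just outside it, and both passed in several of the alternative fits.

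The count of 36 fell when any 1 array was left out, which also leaves fewer arrays to test. It fell least without aged ZT 15 repeat 2, where 23 of the 36 still passed. With 1 array left out it was 10 without aged ZT 12 repeat 1, 7 without aged ZT 12 repeat 2, 12 without aged ZT 15 repeat 1, 32 without aged ZT 15 repeat 2, 16 without young ZT 12 repeat 1, 7 without young ZT 12 repeat 2, 16 without young ZT 15 repeat 1 and 19 without young ZT 15 repeat 2. Each of the 36 genes kept its sign in these 8 fits, and 5 genes passed the threshold in all of them: Actc1, Ighg2c, Kcnab1, Rai14 and Stk26. Without both lymphocyte-bearing young arrays 7 genes passed, all of them rises, and 5 of these were among the 36: Dkk3, Gdf11, Ighg2c, Kcnab1 and Stk26.

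The same age contrast was then measured on the 24 arrays of the other 6 times, which hold other mice. There 3741 genes passed the threshold (16.1%), 2125 of them higher (9.13%) and 1616 lower (6.94%) in aged muscle, with 12 arrays per age in place of 4. Of these 24 arrays, 6 carried liver transcripts, all of them young except aged ZT 6 repeat 1. They were kept in for this contrast. All 36 early dark genes had the same sign there and passed the threshold in the same direction. The median size of their difference was 0.82 in early dark and 0.77 at the other times, and 26 of the 36 were larger in early dark, the side on which they were selected, which itself favours larger values there. Kcnab1 differed by 1.87 and 1.86, Ighg2c by 2.35 and 2.40, and Stk26 by 1.26 and 1.29 in the early dark and at the other times. Over all 23279 genes the differences of the 2 sets of arrays had a Pearson r of 0.42, given as a description across genes, which are not independent.

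**Figure D2:**
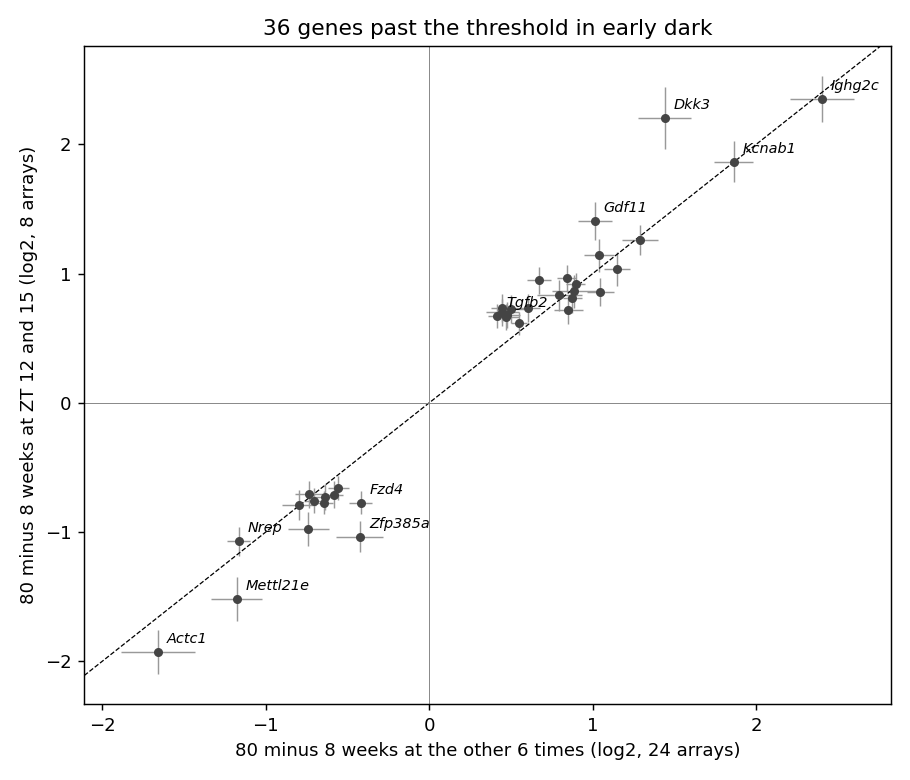
Difference of 80-week minus 8-week muscle (log2) at ZT 12 and 15, from 8 arrays, against that at the other 6 times, from 24 arrays, for the 36 genes past the threshold in early dark. Bars are standard errors and the dashed line marks equal differences. The 36 points lie in the same quadrants, with Dkk3, Zfp385a and Fzd4 farther from 0 in early dark.

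The test of early dark against the other times, in a model of 16 groups over all 32 arrays, called no gene at all (0 of 23279, smallest adjusted p = 0.923, limma), with 1234 genes at an unadjusted p under 0.05 where 1164 would be expected. Among the 36 genes the unadjusted p was under 0.05 for 6. The 36 were selected on the early dark arrays, which itself favours small unadjusted p in this test, so these 6 are a description. Tgfb2 differed by 0.67 in early dark and 0.41 at the other times (unadjusted p = 0.0144), Fzd4 by -0.77 and -0.42 (unadjusted p = 0.0137), Zfp385a by -1.04 and -0.42 (unadjusted p = 0.0410), Dkk3 by 2.20 and 1.44 (unadjusted p = 0.0287), Pla2g7 by 0.73 and 0.44 (unadjusted p = 0.0309) and Wnk3 by 0.95 and 0.67 (unadjusted p = 0.0467). The adjusted p of each was 0.923 or more. The genes with the smallest unadjusted p in this test were Vmn2r49, Defb26, Olfr560, Adam5, Gm3411 and Scgb2b24. Of these, 5 had levels of at most 4.53 on the 8 arrays, and Gm3411 was at 6.77 to 7.08 in young and 5.97 to 6.66 in aged muscle. When aged ZT 15 repeat 1 was left out, so that the matrix-bearing array alone stood for aged muscle at ZT 15, 19 genes passed this test.

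Each sampling time was also tested on its own, with 2 arrays per age. At ZT 12, 3 genes passed, Kcnab1, Dkk3 and Ighg2c, all of them rises (0.0129%), and 1602 genes had an unadjusted p under 0.05. At ZT 15, 1 gene passed, Ighg2c (0.00430%), and 1449 had an unadjusted p under 0.05. Dkk3 differed by 2.75 at ZT 12 and 1.65 at ZT 15 (interaction unadjusted p = 0.0113), Kcnab1 by 2.21 and 1.52 (unadjusted p = 0.0188) and Ighg2c by 1.95 and 2.75 (unadjusted p = 0.0154). These were the 3 of the 36 genes with an unadjusted interaction p under 0.05. The interaction test itself called 0 genes (limma, smallest adjusted p = 0.352, for Cyp2c38), with 1052 genes at an unadjusted p under 0.05. When aged ZT 15 repeat 1 was left out, it called 14 genes and the test at ZT 15 called 65.

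The genes with the smallest p in the interaction test were mostly of low level. Cyp2c38, a cytochrome P450, was at 3.55 and 3.83 in young muscle at ZT 12 and at 2.85 and 2.95 at ZT 15, and at 2.72 and 2.55 in aged muscle at ZT 12 and at 3.63 and 3.72 at ZT 15. The order of the ages was thus opposite at the 2 times. Zfp352, Btbd35f6, Trim30d and Vmn1r185 had levels of at most 5.28 on the 8 arrays. Arrdc2, an arrestin-domain gene, was the one of the 6 at a high level. It was at 9.00 and 9.16 in young muscle at ZT 12 and at 9.55 and 9.65 at ZT 15. In aged muscle it was at 9.24 and 9.24 at ZT 12 and at 8.42 and 8.61 at ZT 15. Its difference between the ages was 0.16 at ZT 12 and -1.09 at ZT 15 (interaction unadjusted p = 0.000165, adjusted p = 0.723).

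No gene of the molecular clock passed the age test in early dark (0 of 14 core clock genes and 0 of 13 clock output genes, limma, against 0.155% of all genes). Of the 27 genes, 5 had an unadjusted p under 0.05, as did 1873 of all 23279 genes: Clock, Arntl, Rora, Cry2 and Wee1. Arntl, the partner of Clock, was at 7.26 and 7.03 in young muscle at ZT 12 and at 8.20 and 8.21 at ZT 15. In aged muscle it was at 8.03 and 7.58 at ZT 12 and at 8.67 and 8.76 at ZT 15. At each time both aged arrays were above both young arrays, and in each age the level was higher at ZT 15. The difference of 0.58 ± 0.120 did not pass (adjusted p = 0.152), and at the other 6 times it was 0.13 (early dark against the other times, unadjusted p = 0.000835, adjusted p = 0.923). Clock was at 9.44, 9.31, 9.65 and 9.50 on the young arrays and at 9.84, 9.81, 10.04 and 10.22 on the aged ones, a difference of 0.50 ± 0.0955 (adjusted p = 0.106). Clock passed in 3 alternative fits, with the filter on low values (limma adjusted p = 0.0382), with an intensity trend (0.0370) and in 16 groups over 32 arrays (0.00431), and Arntl in the last of these (0.00670). At the other 6 times Clock, Per1, Cry2 and Rora passed as higher in aged muscle, by 0.24, 0.35, 0.29 and 0.27 (9.13% of all genes passed as higher there). Rora, which activates Arntl, was at 10.63 to 10.80 in young and 10.89 to 11.09 in aged muscle (adjusted p = 0.565). These 3 were the only core clock genes with aged arrays above young ones at both times, a pattern that 4.48% of all genes had.

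Arms of the clock that Clock and Arntl switch on gave no common direction. Per1 was at 9.65 and 9.67 in young muscle at ZT 12 and at 9.57 and 9.58 at ZT 15, and at 9.66 and 9.78 in aged muscle at ZT 12 and at 9.09 and 8.54 at ZT 15. The ages overlapped at ZT 12, and both aged arrays were lower at ZT 15. Its difference was 0.06 at ZT 12 and -0.76 at ZT 15 (interaction unadjusted p = 0.0122, adjusted p = 0.947). Cry2 differed by 0.45 at ZT 12 and 0.07 at ZT 15, while Per2 and Cry1 differed by 0.06 and 0.03 over both. The repressors Nr1d1 and Nr1d2 differed by -0.27 and -0.36, with aged ZT 15 repeat 2 lowest in both, at 8.70 and 9.72. Ciart and Per3 were also lowest on that array, at 6.34 and 7.14. Bhlhe40, Bhlhe41 and Npas2 differed by 0.22, -0.16 and 0.13. Among output genes, 10 of 13 differences were below 0 with a median of -0.12, against 0.0037 over all genes. Without young ZT 15 repeat 2 it was 7 of 13 with a median of -0.04. Wee1, a cell cycle kinase, was the one of them with aged arrays lower at both times, at 6.76 to 7.06 in young and 6.44 to 6.81 in aged muscle (adjusted p = 0.594). The others differed by -0.17 to 0.18, from Dbp to Myod1, and among them were Tef, Hlf, Usp2, Tspan4, Tcap, Dtx4, Ucp3, Nampt, Lonrf3 and Nfil3.

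**Figure D3:**
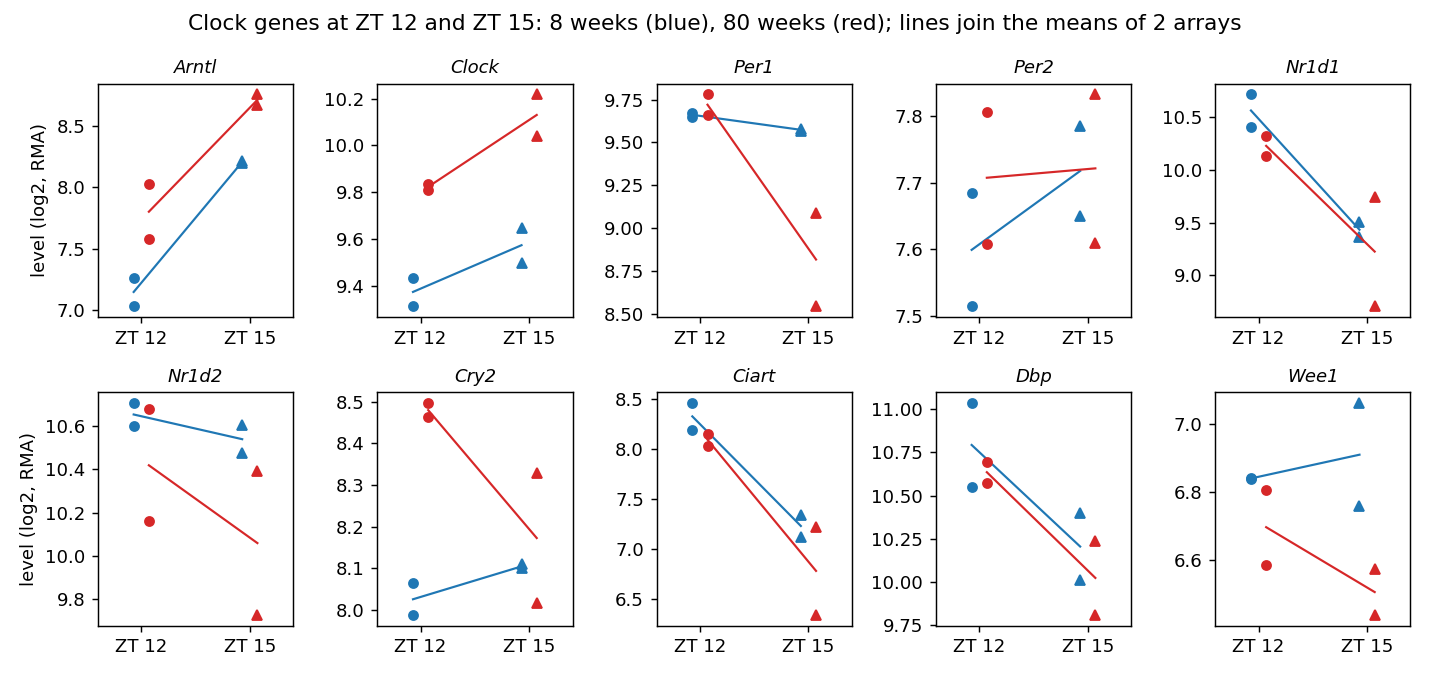
Level (log2, 1 scale per panel) of 10 clock and clock output genes at ZT 12 and ZT 15 on single arrays, 8 weeks in blue and 80 weeks in red, with lines between the means of 2 arrays. Both aged arrays lie above both young arrays at each time for Arntl and Clock, and the ages part at ZT 15 only for Per1.

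Promoters of clock and glucocorticoid target genes are shown because these lists are read on the time axis, where E-boxes (CACGTG, bound by CLOCK and BMAL1) and the core of the ROR element (TAGGTCA, bound by ROR and REV-ERB proteins) are the known clock motifs. The sequences are those of RefSeq on GRCm38.p6, from 250 bases before to 50 bases after an annotated start (1 of 2 such starts for Arntl and Per1), and capitals mark the motif.
Arntl promoter, GRCm38.p6 chr7:113207261-113207560, plus strand: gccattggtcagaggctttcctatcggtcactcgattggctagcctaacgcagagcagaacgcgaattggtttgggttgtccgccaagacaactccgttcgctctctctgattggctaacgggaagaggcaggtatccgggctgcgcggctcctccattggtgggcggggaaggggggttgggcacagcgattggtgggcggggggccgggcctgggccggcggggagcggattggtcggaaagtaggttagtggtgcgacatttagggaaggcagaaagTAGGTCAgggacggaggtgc
Per1 promoter, GRCm38.p6 chr11:69098699-69098998, plus strand: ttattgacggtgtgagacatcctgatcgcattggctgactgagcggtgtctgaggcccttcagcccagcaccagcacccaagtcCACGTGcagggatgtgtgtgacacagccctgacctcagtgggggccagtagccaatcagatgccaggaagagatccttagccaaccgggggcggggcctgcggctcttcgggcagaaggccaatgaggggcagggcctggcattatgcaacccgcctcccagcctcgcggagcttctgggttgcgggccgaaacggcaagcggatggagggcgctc
Fkbp5 promoter, GRCm38.p6 chr17:28486100-28486399, minus strand: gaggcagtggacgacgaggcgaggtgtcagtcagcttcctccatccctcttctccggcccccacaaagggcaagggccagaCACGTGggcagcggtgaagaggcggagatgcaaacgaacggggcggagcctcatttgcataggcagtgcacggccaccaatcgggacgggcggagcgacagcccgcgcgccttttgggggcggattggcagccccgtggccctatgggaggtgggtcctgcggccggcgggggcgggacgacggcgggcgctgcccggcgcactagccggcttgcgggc
The window of Arntl holds the ROR core at base 281 of 300, after the start, and those of Per1 and Fkbp5 hold an E-box at bases 85 and 82. Searched on both strands, an E-box was found in 7.15% of 32851 promoters and, counted by gene, in 8.09% of 27025 genes, in 4 of 12 core clock genes with a promoter (Per1, Cry1, Ciart and Bhlhe41) and in 4 of 13 glucocorticoid targets (Fkbp5, Klf15, Dusp1 and Sgk1). The ROR core was found in 2.61% of promoters. The consensus of the glucocorticoid response element, where the receptor binds, was found in 1 of the 13 targets, Sgk1, and in 0.0111% of all genes. Of the 36 genes that passed, 25 had a promoter in the table, and an E-box was found in 4 of these, Bex1, Kcnab1, Taf9b and Tgfb2. A match is a run of letters and not a measured binding site.

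Most glucocorticoid target genes stood higher at ZT 15 than at ZT 12 in young muscle (12 of 14), and by less in aged muscle, without passing the test. Fkbp5, a chaperone of the glucocorticoid receptor and one of its most responsive targets, was at 8.01 and 7.94 in young muscle at ZT 12 and at 9.28 and 9.66 at ZT 15. In aged muscle it was at 8.38 and 8.24 at ZT 12 and at 8.71 and 9.05 at ZT 15. The aged arrays were above the young ones at ZT 12 and below them at ZT 15, and the later level was the higher one in both ages. The difference between the ages was 0.33 at ZT 12 and -0.59 at ZT 15 (interaction unadjusted p = 0.00558, adjusted p = 0.947). Zbtb16, a zinc finger repressor, was at 9.55 and 9.63, then 10.38 and 10.55 in young muscle, and at 10.02 and 9.77, then 10.07 and 10.09 in aged muscle (unadjusted p = 0.00836). Glul, glutamine synthetase, was at 10.76 and 10.67, then 11.33 and 11.57 in young muscle, and at 11.12 and 10.97, then 11.01 and 11.19 in aged muscle (unadjusted p = 0.0110). Both genes thus spanned a narrower range in aged muscle.

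The change from ZT 12 to ZT 15 was more positive in young than in aged muscle for each of the 14 listed targets. The median change was 0.56 in young and 0.04 in aged muscle, and the median interaction was -0.45, against 0.0064 over all genes, of which 49.1% were below 0. No target passed the interaction test (0 of 14, limma), and Klf15 and Tsc22d3 joined the 3 above with an unadjusted p under 0.05 (0.0321 and 0.0469). Over all 23279 genes, 1052 had such an unadjusted p. Highly expressed genes as a whole leaned the same way, with 63.2% below 0 and a median of -0.0757 among genes with a mean of at least 6. With 1 array left out, 11 to 14 of the 14 were below 0, the fewest without aged ZT 15 repeat 1, with medians of -0.56 to -0.38. It was 13 of 14 after quantile normalization and 14 of 14 after median centring. Without the 2 lymphocyte-bearing young arrays, the count was 12 of 14 and the median -0.36. The 6 adipocyte genes leaned the same way and further, with 6 of 6 below 0 and a median of -0.83, or 4 of 6 and -0.0759 without aged ZT 12 repeat 1, and their part in the result was not tested. The targets were a list chosen with these data known, so the count is a description. The lists of heat and cold response, atrophy and autophagy, and glucose and glycogen gave 14 of 15, 13 of 14 and 15 of 18 below 0, with medians of -0.12, -0.27 and -0.16. After quantile normalization these counts were 9 of 15, 10 of 14 and 16 of 18. Without aged ZT 15 repeat 1 the heat and cold list gave 9 of 15 with a median of -0.00605, and without the 2 lymphocyte-bearing arrays the medians were -0.04, -0.11 and -0.11.

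**Figure D4:**
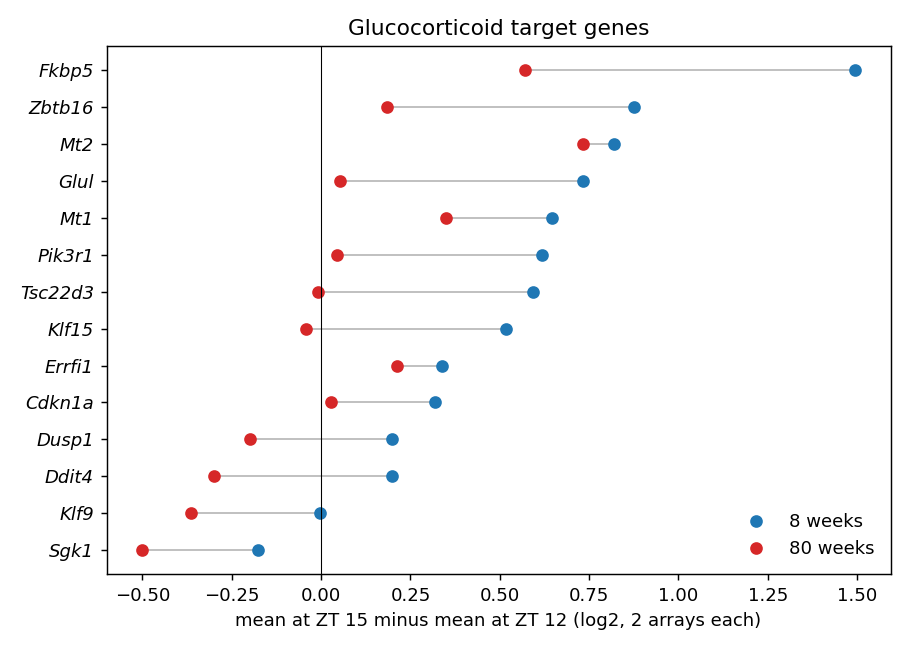
Change of the mean level from ZT 12 to ZT 15 (log2, 2 arrays per mean) for 14 glucocorticoid target genes, 8 weeks in blue and 80 weeks in red, joined by a line per gene. The red point lies left of the blue one in each of the 14 genes, and the medians are 0.56 and 0.04.

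Over both times the targets showed no change with age that passed the test. Ddit4, an inhibitor of mTORC1 signalling, was at 7.44, 7.30, 7.24 and 7.90 on the young arrays and at 6.92, 6.90, 6.60 and 6.62 on the aged ones. The aged arrays were all below the young ones, by -0.71 ± 0.158 (adjusted p = 0.187). At the other 6 times Ddit4 differed by 0.22 (early dark against the other times, unadjusted p = 0.000438, adjusted p = 0.923). Sgk1, a kinase of ion transport, differed by -0.32, and the metallothioneins Mt2 and Mt1 by 0.72 and 0.21.

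Genes of the respiratory chain and the TCA cycle stood lower in aged muscle, and none of them passed the test. All 25 measured members had a difference below 0 with a median of -0.21 (24 of 25 after median centring and 23 of 25 after quantile normalization), and in 10 of them both aged arrays lay below both young arrays at each time, where 4.14% of all genes did. The mean of the list was 10.42 and 10.69 on the aged arrays of ZT 12 and 10.43 and 10.55 on those of ZT 15. The slow fibre and the fast fibre means had the same order of the 4 aged arrays. The fast fibre means were 12.77 and 13.00, then 12.84 and 12.93, and the adipocyte means 9.58 and 8.03, then 9.18 and 7.99. The part of fibre type or of fat in the respiratory values was not tested. No gene of the respiratory list passed (0 of 25, limma). Sdhc, a subunit of succinate dehydrogenase, was at 10.42 and 10.68 in young muscle at ZT 12 and 9.92 and 10.08 at ZT 15, and at 9.23 and 9.71, then 9.32 and 9.55 in aged muscle (difference -0.82 ± 0.152, adjusted p = 0.0930; 0.0418 with the filter on low values). Cox5a and Uqcrc1, subunits of complexes IV and III, differed by -0.50 and -0.32, and Cycs, cytochrome c, by -0.34. At the other 6 times the median of the list was -0.14 and 9 of the 25 passed as lower, where 6.94% of all genes did. Glucose and glycogen genes were evenly split, 9 above and 9 below 0 of 18, with Pdp1 at 0.30 and Pdk4 at -0.30, and of 15 lipid handling genes 6 were above and 9 below 0. Neither list held a gene that passed.

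Slow fibre genes stood lower on the aged arrays, by an amount that varied from pool to pool. The mean of the 10 slow fibre genes was 9.14, 9.19, 9.44 and 9.05 on the young arrays and 7.29, 9.02, 8.30 and 8.76 on the aged ones. Each aged array was below each young one, and aged ZT 12 repeat 1 was the lowest. All 10 differences were below 0 (9 of 10 after median centring), with a median of -0.94, or -0.55 without that array. Myh7, the slow myosin heavy chain, was at 9.73, 9.90, 10.01 and 9.56 in young muscle and at 6.90, 9.24, 8.29 and 8.83 in aged muscle (difference -1.49 ± 0.408, adjusted p = 0.318). Tpm3, Tnnc1 and Atp2a2, also of slow fibres, differed by -1.11, -1.12 and -0.79. None of the 10 passed, and 7 had aged arrays lower at both times (4.14% of all genes did). At the other 6 times the median was -0.37, and 1 of the 10 passed as lower, where 6.94% of all genes did. No gene of the list differed between early dark and the other times after adjustment, as no gene at all did. The part that the choice of muscles in a pool has in these values was not tested. Fast fibre genes had a median of -0.08, and Casq1, the calsequestrin of fast fibres, was at 12.93 to 13.09 in young and 12.69 to 12.80 in aged muscle (adjusted p = 0.501).

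Genes of denervation and the nerve contact, atrophy and heat response gave single members apart in level. Imprinted growth genes stood lower as a list, and no gene of these lists passed. Of 18 denervation and junction genes 11 were above and 7 below 0 with a median of 0.03, and 4 had aged arrays higher at both times (4.48% of all genes did): Myh3, embryonic myosin, by 0.53, Musk, the kinase that organises the junction, by 0.51, Chrnb1, an acetylcholine receptor subunit, by 0.31, and Hdac4 by 0.27. Fbxo32, the ubiquitin ligase atrogin-1, was at 10.25 to 10.71 in young and 10.96 to 11.14 in aged muscle (difference 0.54 ± 0.114, adjusted p = 0.158), while Ctsl and Map1lc3b differed by -0.35 and -0.22. Hspb1, a small heat shock protein, was at 8.04 to 8.49 in young and 7.43 to 7.86 in aged muscle (difference -0.48, adjusted p = 0.263), and Hspa5, a chaperone of the endoplasmic reticulum, differed by 0.34. Of 12 imprinted growth genes 11 were below 0 with a median of -0.23, among them Peg3, Rian, Meg3 and Igf2 at -0.66, -0.98, -0.57 and -0.28. After median centring it was 10 of 12. In 4 of the 12 the aged arrays were lower at both times (4.14% of all genes). The list mean was 7.28 to 7.33 on young and 6.81 to 7.23 on aged arrays. At the other 6 times 4 of the 12 passed as lower, where 6.94% of all genes did. Nqo1, a redox enzyme, differed by 0.40 and Gclm, of glutathione synthesis, by -0.35. Nr4a1 and Jun, both immediate early genes, differed by -0.37 and 0.31.

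Collagen and matrix genes rested on 1 array at ZT 15. The mean of the 19 genes was 7.95 and 8.29, then 7.94 and 8.16 in young muscle, and 7.70 and 7.57, then 7.56 and 9.74 in aged muscle. The 3 other aged arrays were below all young ones. Col1a1 was at 9.17 to 10.46 on the young arrays and at 8.24 to 8.46 on the aged arrays other than that one, where it was 12.12. Col3a1 was at 8.93 to 9.34 and at 7.77 to 8.03, with 11.76 on that array. Without it Col3a1 passed the age test as lower, by -1.30 (limma adjusted p = 0.00539). The interaction was above 0 in 19 of 19 genes, and in 10 of 19 with a median of 0.0114 without that array. Over both times and all 8 arrays none of the 19 passed, with 8 differences above and 11 below 0, and 3 above and 16 below with a median of -0.43 when that array was left out. The same array had the highest mean of the 11 macrophage genes, at 7.47 against 6.29 to 6.80 on the other aged and 6.32 to 6.67 on the young arrays. All 11 macrophage differences were above 0 with a median of 0.23, against 7 of 11 and 0.04 without that array, and Cd163, a scavenger receptor, was at 6.51 to 7.25 in young and 7.08 to 7.88 in aged muscle (adjusted p = 0.318). The fibroblast list had a median of 0.33 with 7 of 7 above 0, or 0.14 with 5 of 7 without that array, with Dcn, the proteoglycan decorin, at 0.38. At the other 6 times the median of the 19 collagen and matrix genes was -0.40. There 12 of the 19 passed as lower and 1 as higher, where 6.94% and 9.13% of all genes did.

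**Figure D5:**
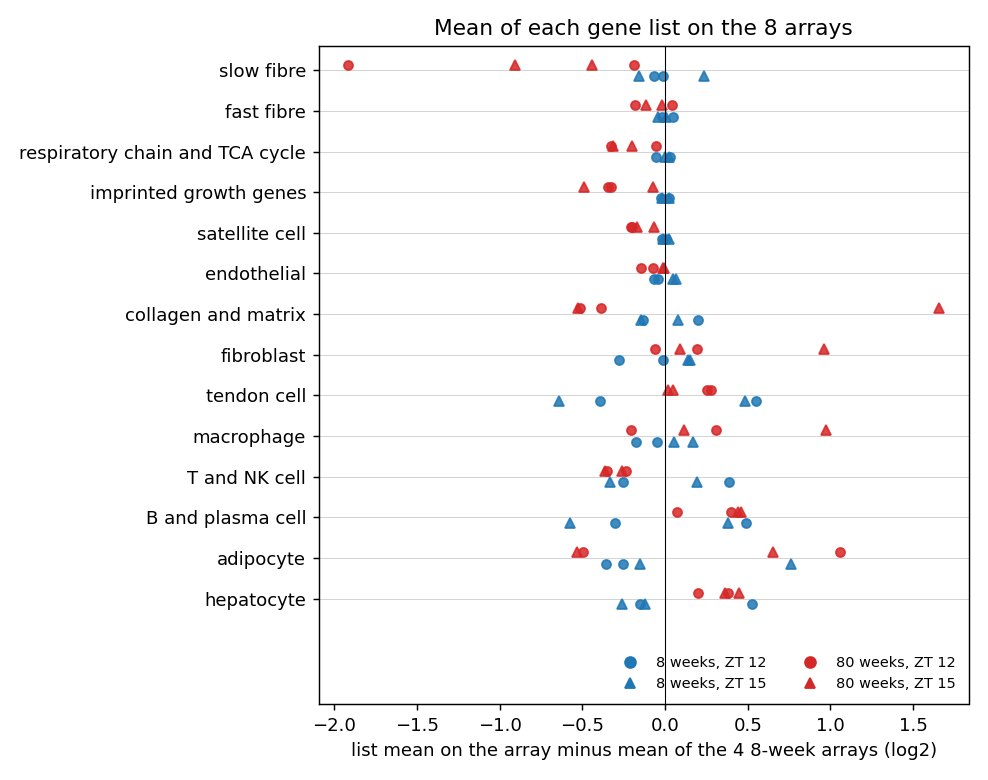
Mean level of 14 gene lists on each of the 8 arrays, minus the mean of the 4 8-week arrays (log2). Blue marks 8 weeks and red 80 weeks, circles ZT 12 and triangles ZT 15. The aged slow fibre means lie between 7.29 and 9.02 before subtraction, below each young mean, and a single aged ZT 15 array stands far to the right in the collagen and matrix list.

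Markers of the other cell types held no gene past the threshold apart from the 2 immunoglobulins. Hepatocyte genes, which muscle should lack, were above 0 in 15 of 15 with a median of 0.24, with Alb (albumin) at 6.95 to 9.47 in young and 8.88 to 9.71 in aged arrays. At the other 6 times their median was -1.03, and 10 of the 15 passed as lower in aged muscle (6.94% of all genes did). There 6 arrays had Alb above 10, all of them young except aged ZT 6 repeat 1, and no early dark array did. The early dark median was 0.40 without young ZT 12 repeat 1, and the count 12 of 15 without young ZT 15 repeat 2. Without the 6 arrays with Alb above 10, 2339 genes passed at the other times in place of 3741, with fewer arrays to test. The part of the liver signal in single age differences was not tested. In endothelium 4 of 10 differences were above 0 and 6 below. Esam, Pecam1 and Egfl7 were lower at both times, at -0.24, -0.24 and -0.14 (4.14% of all genes were), and Cldn5 higher, at 0.25 (4.48%). Satellite cell genes were below 0 in 6 of 7, or 4 of 7 without young ZT 15 repeat 2, with Myf5 and Pax7 at -0.28 and -0.27. The T and NK cell list was below 0 in 7 of 8, with a median of -0.32, and without the 2 lymphocyte-bearing arrays it was below 0 in 3 of 8 with a median of 0.02. Adipocyte genes varied from pool to pool, with Adipoq at 7.06 to 8.69 in young and 7.01 to 8.81 in aged muscle. The tendon, bone and cartilage, smooth muscle and pericyte, neutrophil, erythroid, Schwann cell, brown adipocyte and keratinocyte lists, and those of interferon response, antigen presentation and senescence, had median differences of -0.16 to 0.20.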

How the data were processed

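RNA of hindlimb muscle was measured on 32 arrays, of which the 8 of ZT 12 and ZT 15 enter the main comparison. The authors deposited a log2 level for each of 24479 probe sets; R 3.2.2, affy 1.44.1 and RMA, which averages the probes of a set robustly, are named in the submitters' processing notes. RMA shrinks differences of weakly expressed genes. For the genome build and the probe set definition nothing is given in the sources used here. Of the probe sets, 23281 had 1 symbol, 0 several and 1198 none; 23156 were found in the RefSeq table of assembly GRCm38.p6. The probe set with the highest mean over 32 arrays stood for a gene, which left 23279 genes with no filter. Array medians of the 8 ran from 6.00 to 6.08, and the number of arrays limits the precision.

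Tests used lmFit and eBayes of limma (version 3.58.1, under R 4.3.3). P-values were adjusted after Benjamini and Hochberg over all genes, at a threshold of 0.05; adjusted p-values in the text are limma's. The age difference was fitted with ZT as covariate, each time and the interaction in a model of 4 groups, and early dark against the other times in a model of 16 groups. The fits were tested on simulated data.

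The members and the 36 gene lists, with 416 entries of which 390 were measured, were chosen with earlier results of these data known. The text names the clock genes, the 12 largest rises and falls among genes past the threshold with separate ages, up to 4 genes of smallest p per list, and the 6 genes of smallest p in the interaction and in the early dark contrast. Genes outside this rule (such as the other called genes, those near the threshold, and genes that mark single arrays) were chosen after their values were seen. Alternatives were a replicate block, a filter on low values, other variance models, array weights, 2 normalizations, other sets of arrays and all probe sets. Promoter sequences are RefSeq's.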

Additional observations from a re-analysis of the deposited data

Results flagged for a closer look

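Values far from the other 3 arrays of their age were looked for in 374 groups of 4 arrays, and 16 were found where chance alone gives about 1 in 20, or 18.7. The number found is thus no larger than that rate gives, which does not allow for the 2 ZT within each group of 4. Of the 16, 7 lie on 1 array, aged ZT 15 repeat 2. Some of the genes looked at were named because they stood out there, and the collagen and matrix mean holds some of them. The 7 flags are therefore a description and no test of that array. On that array the mean of the collagen and matrix list was 9.74, against 7.56 to 7.70 on the other aged arrays. Col1a1 was at 12.12 (others 8.24 to 8.46), Col3a1 at 11.76 (others 7.77 to 8.03), Postn at 11.39 (others 5.84 to 6.60), Tnc at 9.47 (others 5.75 to 5.95) and Timp1 at 7.06 (others 4.27 to 4.45). Klf15 was at 7.59 there, just below 7.68 to 7.69 on the others.

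On aged ZT 12 repeat 2, Klhl38 was at 10.84, above 10.50 to 10.52, and the mean of the B and plasma cell list was 6.36, below 6.69 to 6.75. On aged ZT 15 repeat 1, Tspan4 was at 6.78, below 7.03 to 7.06, and Map1lc3b at 10.66, below 10.88 to 10.91. On young ZT 15 repeat 1, Hlf was at 7.13, below 7.55 to 7.59, Defb26 at 3.92, below 4.14 to 4.15, and the mean of the keratinocyte list was 5.50, above 5.41 to 5.42. On young ZT 15 repeat 2, Adipoq was at 8.69, above 7.06 to 7.16, and Fam98b at 7.91, above 7.61 to 7.64.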

How the results depend on the processing

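The 36 genes called in early dark became 22 with a replicate block (21 of them shared), 69 with a filter on a mean of at least 6, 71 with an intensity trend and robust variance, 60 with array weights, 131 in a fit of 16 groups over 32 arrays, and 7 without the 2 lymphocyte-bearing arrays, an alternative chosen after seeing the data. They ranged from 7 to 32 with 1 array left out. Quantile normalization (35), median centring (49), all probe sets (36) and no ZT covariate (39) stayed within 1.5 times. The 3 calls at ZT 12 became 11 with the filter, 9 with the trend, 31 over 32 arrays, 1 without the lymphocyte-bearing arrays and 0 to 3 with 1 array left out. The single call at ZT 15 became 2, 3 and 10 under the first 3 of these, and 0 to 65 with 1 array left out. The interaction gave 0 to 14 calls and early dark against the other times 0 to 19 with 1 array left out; both highest counts came without aged ZT 15 repeat 1. The 3741 calls at the other times became 2339 without the 6 arrays with Alb above 10, also chosen after seeing the data. Of 2909 values of named genes under alternatives, 2584 kept direction and side of the threshold, 243 lost and 26 gained a call, 56 without a call changed sign, and 0 calls reversed. Where the cause of a change is not the number of genes or arrays, the cause was not tested. Deviations of same-numbered repeats from their group means correlated at -0.0881 to 0.208 between groups, so the numbers were not taken as pairs, and the replicate block, which gave 14 rises and 8 falls in early dark in place of 23 and 13, moved the count of calls of no other test by over 1.5 times.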
